A study of Mus musculus with 536 samples.

Results

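Cytochrome P450 genes were examined in the peripheral blood of irradiated mice. The members were all genes whose symbol begins with Cyp, followed by a family number, a subfamily letter and a gene number, in the probe annotation, each read through the brightest of its probe sets (by the mean of all arrays). They were 62 of the 12393 genes with a probe set of 1 symbol, and all 62 were found in RefSeq by their Entrez ID. By role they comprised 3 xenobiotic genes of family 1, 31 of family 2 and 5 of family 3, 10 fatty acid and eicosanoid genes of family 4, 6 bile acid and sterol genes, 4 steroid hormone genes and 3 vitamin D or retinoid genes. Cyp20a1 was not measured, and 4 further P450 probe sets that name several genes each were not used.

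The study profiled blood drawn by terminal cardiac puncture from C57BL/6 mice, 10 to 12 weeks old, at set hours after 1 total body exposure to caesium-137 gamma rays, on Affymetrix mouse 430A 2.0 arrays after globin reduction. The dose and time experiment held 240 mice in 48 groups of 5, given a low dose (100, 200 or 300 cGy), a higher dose (450, 600, 800 or 1050 cGy) or 0 cGy and bled at 6, 24, 48, 72, 120 or 168 hr. The sex and treatment experiment held 111 mice labelled female and 115 labelled male in 48 groups of 3 to 5, given GCSF (the granulocyte growth factor), LPS (bacterial endotoxin) or no agent, exposed to 200, 300 or 600 cGy or to 0 cGy and bled at 6 or 24 hr. A small treatment experiment held 50 mice in 9 groups of 5 or 6, under GCSF, LPS or no agent, at 150, 600 or 0 cGy and 6 hr, and a small 7 day experiment held 18 mice, 10 of them at 150 cGy and 168 hr 3 at 0 cGy and 168 hr, and the rest at 0 cGy and 6 or 24 hr. Sex was labelled only in the sex and treatment experiment, and the labels give no dose of GCSF or LPS. The labels say nothing of litter or cage, so p-values measure the spread between these mice.

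Every value below is the authors' RMA log2 signal, whose depth is not a count, and the number of mice limits its precision. A difference is between group means on that log2 scale with its standard error, the adjusted p is from limma with Benjamini-Hochberg adjustment over all 12393 genes, and a gene was called where it was under 0.05. For dose, the test was of the slope over all doses of a time, while the difference printed is 600 minus 0 cGy, so the sign of both can differ. In whole blood, fewer cells of a type and less RNA per cell cannot be told apart.

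Cytochromes P450 are haem enzymes that insert an oxygen atom into small molecules. In the endoplasmic reticulum they take electrons from P450 reductase and cytochrome b5, and in mitochondria from ferredoxin. Families 1, 2 and 3 are best known from hepatocytes, where they clear drugs and toxins, family 4 hydroxylates fatty acids and eicosanoids, and other members make or break down bile acids, steroids, vitamin D and retinoic acid. Among family 4 genes, Cyp4f18 is known from mouse neutrophils, where it inactivates leukotriene B4.

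Promoters of the 6 members on which most results turn are shown to set the hepatic genes (Cyp2e1, Cyp2d10 and Cyp2d9) beside 3 that had a called dose slope already at 48 and 72 hr, when the hepatic 3 did not (Cyp2b10, Cyp4b1 and Cyp4f18). They are RefSeq sequences of GRCm38.p6, 250 bases before to 50 after the annotated start, printed 5′ to 3′ on the gene's strand. The windows are chr7:140763569-140763868 on the plus strand for Cyp2e1, chr15:82407145-82407444 on the minus strand for Cyp2d10, chr15:82452127-82452426 on the plus strand for Cyp2d9, chr7:25897408-25897707 on the plus strand for Cyp2b10, chr4:115647672-115647971 on the minus strand for Cyp4b1 and chr8:72009577-72009876 on the minus strand for Cyp4f18. Capitals mark matches, on either strand, to 4 short motifs: TATAAA, the HNF4 core CAAAGNNCA, the GATA motif AGATAA and the PU.1 core GAGGAA, none of which overlapped another here.
Cyp2e1: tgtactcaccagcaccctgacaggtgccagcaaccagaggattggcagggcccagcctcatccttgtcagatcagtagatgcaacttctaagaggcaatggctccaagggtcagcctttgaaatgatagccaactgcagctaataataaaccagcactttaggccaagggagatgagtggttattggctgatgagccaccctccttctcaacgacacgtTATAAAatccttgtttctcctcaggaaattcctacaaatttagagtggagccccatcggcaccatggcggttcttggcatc
Cyp2d10: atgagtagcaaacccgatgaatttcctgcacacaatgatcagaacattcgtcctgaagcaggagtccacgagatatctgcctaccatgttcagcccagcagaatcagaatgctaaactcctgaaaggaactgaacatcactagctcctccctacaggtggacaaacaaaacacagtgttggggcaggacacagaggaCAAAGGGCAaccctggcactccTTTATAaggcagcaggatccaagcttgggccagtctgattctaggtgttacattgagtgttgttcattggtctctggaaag
Cyp2d9: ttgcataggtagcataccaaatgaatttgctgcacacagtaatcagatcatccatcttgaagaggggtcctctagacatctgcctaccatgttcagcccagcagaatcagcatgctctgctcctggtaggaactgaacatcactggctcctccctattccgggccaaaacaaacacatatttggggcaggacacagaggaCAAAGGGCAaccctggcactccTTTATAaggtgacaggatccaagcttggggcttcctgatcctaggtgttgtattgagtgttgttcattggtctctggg
Cyp2b10: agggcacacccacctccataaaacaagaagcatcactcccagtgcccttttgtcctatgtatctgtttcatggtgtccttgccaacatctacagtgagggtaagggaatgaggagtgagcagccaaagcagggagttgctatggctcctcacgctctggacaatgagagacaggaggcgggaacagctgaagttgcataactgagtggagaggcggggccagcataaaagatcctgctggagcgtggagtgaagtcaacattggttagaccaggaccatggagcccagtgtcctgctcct
Cyp4b1: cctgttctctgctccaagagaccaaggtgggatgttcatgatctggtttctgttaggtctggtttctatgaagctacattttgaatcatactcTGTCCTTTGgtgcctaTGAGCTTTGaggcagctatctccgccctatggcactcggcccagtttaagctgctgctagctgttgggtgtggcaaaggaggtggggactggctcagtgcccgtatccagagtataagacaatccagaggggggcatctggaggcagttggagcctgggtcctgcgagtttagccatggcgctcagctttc
Cyp4f18: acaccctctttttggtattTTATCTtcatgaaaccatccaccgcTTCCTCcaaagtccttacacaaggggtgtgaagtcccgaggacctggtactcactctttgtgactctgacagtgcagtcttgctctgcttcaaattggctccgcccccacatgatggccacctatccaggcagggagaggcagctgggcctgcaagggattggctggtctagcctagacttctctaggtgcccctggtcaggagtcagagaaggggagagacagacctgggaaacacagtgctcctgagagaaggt

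Cyp2d10 and Cyp2d9 share a run of 51 bases that holds their HNF4 core and their TATA motif. Cyp2e1 has a TATA motif, Cyp4b1 has 2 HNF4 cores read on its minus strand, Cyp4f18 has 1 GATA motif and 1 PU.1 core, and Cyp2b10 has none of the 4. Of all 32851 promoter windows of this length, 6.36% held the HNF4 core, 13.6% the TATA motif, 11.2% the GATA motif and 28.3% the PU.1 core. Of the 52 windows of P450 members, 17 (32.7%) held the HNF4 core, 36.5% the TATA motif, 19.2% the GATA motif and 17.3% the PU.1 core. Counted by gene, the HNF4 core stood in 13 of the 29 members with a window that were called higher with dose at 168 hr (44.8%), in 3 of the other 16 members with a window (18.8%), and in 7.28% of all genes. Related genes of a subfamily count separately here, Cyp2d10 and Cyp2d9 among them, and the difference between these shares was not tested. A match is a description of the letters and not a bound site.

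Most P450 genes were dim in blood. The mean of 46 of the 62 lay under 6.18, the median of the means of all genes. Only a few stood high over all mice. Cyp4b1, a fatty acid and arylamine oxidase, had the highest mean (9.42), followed by Cyp2c29 (8.80), a hepatic drug-metabolising enzyme, and Cyp4f18. The label is of peripheral blood, and leukocyte and erythroid marker genes were present, but so in many mice were hepatocyte genes.

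Levels of albumin mRNA (Alb), the defining hepatocyte transcript, varied widely between mice (lowest 4.92, median 9.71 and highest 14.79 in the 240 mice of the dose and time experiment), and P450 values are therefore given beside it. Mice are counted at 10 or more, a threshold that lies near the median with values on both sides of it. In the dose and time experiment, Alb was at 10 or more in 20 of 20 mice at 450 cGy or more and 1 of 20 under 450 cGy at 120 hr, and in 20 of 20 and 4 of 20 at 168 hr. At the earlier times it was not tied to dose in that way: 1 and 0 of 20 at 6 hr, 12 and 11 at 24 hr, 13 and 13 at 48 hr, and 12 and 9 at 72 hr. In the sex and treatment experiment, 2 mice labelled female went against their label. Both were untreated at 6 hr. The library labelled 300 cGy, replicate 5, had the Y-linked Eif2s3y at 7.77 and Xist at 5.84. The library labelled 0 cGy, replicate 3, had Xist at 5.54 with Eif2s3y at 3.09. The other 109 females had Xist between 9.74 and 12.78 and Eif2s3y at most 3.57, and the 115 males had Eif2s3y between 4.81 and 8.90. Results that rest on these 2 libraries are given with and without them below.

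The hepatic P450 genes rose together with dose at 120 and 168 hr. At 168 hr, 38 of the 62 members were called higher and 15 lower, against 35.5% and 46.6% of all genes (82.2% either way). At 120 hr, 36 were called higher and 13 lower, against 35.4% and 47% of all genes (82.4% either way). The median difference between 600 and 0 cGy was 1.15 over the members and −0.07 over all genes at 168 hr, and 0.79 and −0.04 at 120 hr. By class at 168 hr, 20 of 31 family 2 genes were higher and 5 lower (median 2.82), 4 of 5 family 3 genes were higher and none lower (median 3.30), and 5 of 6 bile acid and sterol genes were higher and none lower (median 1.05). Family 4 split into 6 higher and 3 lower, while 1 of 3 family 1 genes was higher and 2 lower. The map of differences by dose and time shows the risen members of these classes as bands that fill in from 450 cGy at the last 2 times.

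**Figure D1:**
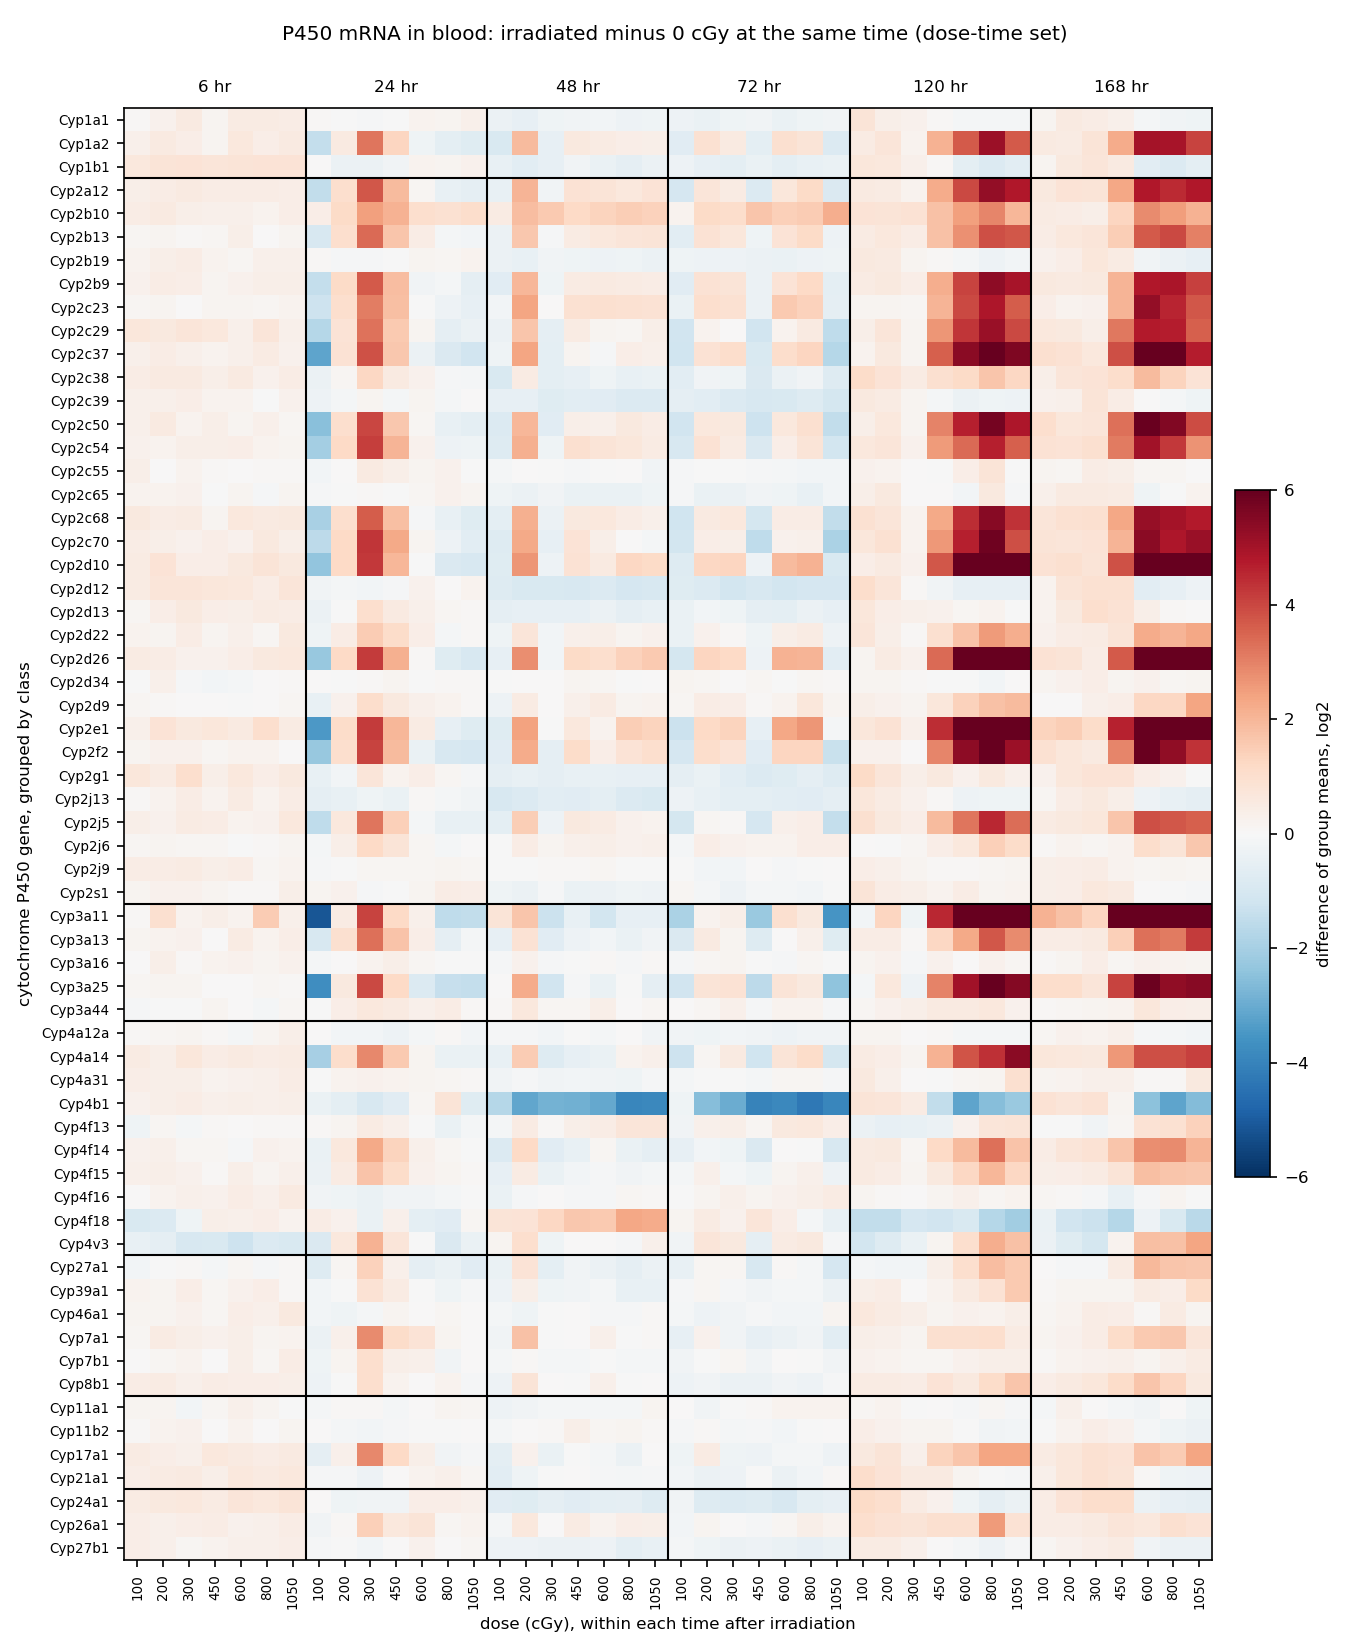
Difference from the 0 cGy group of the same time for all 62 P450 genes (rows, grouped by role) at each dose within each time (columns, 5 mice per group), on a log2 colour scale that saturates at 6 in either direction. Many rows of families 2 and 3 are high at 450 cGy and above at 120 and 168 hr, while others are flat or lower. Many of the same high rows are also high at 300 cGy and 24 hr.

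Cyp2e1, the ethanol and acetaminophen oxidase of hepatocytes around the central vein, had 13.04, 13.46, 12.78, 13.33 and 11.93 at 600 cGy and 168 hr, against 5.59, 5.20, 5.85, 4.72 and 6.12 at 0 cGy. At 450 cGy and 168 hr its 5 mice ranged from 9.06 to 11.48, and at 300 cGy from 5.69 to 8.82. All mice at 450, 600, 800 and 1050 cGy lay above all mice at 0, 200 and 300 cGy at this time, and 1 group at low dose overlapped them, since its highest mouse at 100 cGy reached 10.84. The difference was 7.41 ± 1.31 at 168 hr (adjusted p = 3.7e-13) and 6.59 ± 1.31 at 120 hr (1.2e-15), the largest but one of all members at both times. At 120 hr Cyp2e1 had 13.13, 9.97, 12.38, 12.46 and 11.61 at 600 cGy, 12.77, 8.19, 6.89, 8.57 and 12.27 at 450 cGy, and 4.92, 5.11, 6.92, 4.54 and 5.11 at 0 cGy. One mouse at 450 cGy thus overlapped the unirradiated mice at 120 hr, and none did at 600 cGy.

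Cyp3a11, the main steroid and drug hydroxylase of mouse liver, changed most of all members. It had 12.46, 13.16, 12.42, 12.98 and 12.10 at 600 cGy and 168 hr, against 4.73, 3.87, 5.62, 4.19 and 5.52 at 0 cGy, a difference of 7.84 ± 1.59 (adjusted p = 9.5e-10). Cyp2d10, a hepatic member of the drug-oxidising 2d subfamily, had 11.51, 12.67, 11.74, 12.15 and 10.64 against 4.31, 4.43, 4.43, 4.45 and 4.55 (7.31 ± 1.16, adjusted p = 2.4e-18). The unirradiated mice of Cyp2d10 sat close together near 4.4, while those of Cyp3a11 ranged from 3.87 to 5.62. Within each of the 5 array runs, 1 mouse per group, Cyp2e1, Cyp3a11 and Cyp2d10 were higher at 600 than at 0 cGy in 5 of 5 runs at both times, Cyp2e1 by 5.8 to 8.61 and Cyp3a11 by 6.58 to 9.29 at 168 hr.

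Genes that mark both ends of the liver lobule rose. Cyp1a2, the caffeine demethylase found around the central vein, had 9.13, 11.22, 9.21, 10.54 and 8.75 at 600 cGy and 168 hr, against 4.80, 4.81, 4.71, 4.89 and 4.66 at 0 cGy (5.00 ± 0.80). Cyp2f2, a naphthalene oxidase found around the portal vein and in lung club cells, had 9.39, 10.81, 8.80, 9.43 and 7.59 against 2.99, 3.21, 3.19, 3.55 and 3.51 (5.91 ± 1.10). Neither gene's groups overlapped. Further family 2 and 3 members rose on the same scale at 168 hr, among them Cyp2d26 (7.04 ± 1.15), Cyp2c37 (6.35), Cyp2c50 (5.94), Cyp3a25 (5.86), Cyp2c70 (5.41) and Cyp2c23 (5.25). In family 4, Cyp4a14, a target of the fatty acid receptor PPAR alpha in liver, rose by 3.88.

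Bile acid and sterol genes rose by less, 3 of 6 called higher at 120 hr and 5 of 6 at 168 hr. Cyp7a1, the rate-limiting enzyme of bile acid synthesis, had 6.53, 7.60, 5.25, 6.90 and 5.99 at 600 cGy and 168 hr, against 4.92, 4.84, 4.87, 4.79 and 4.92 at 0 cGy (1.59 ± 0.46, adjusted p = 4.1e-04). Cyp8b1, which makes cholic acid, had 5.09, 7.58, 5.77, 6.40 and 5.27 against 4.43, 4.37, 4.29, 4.34 and 4.43 (1.65 ± 0.30, adjusted p = 4.6e-04). Cyp27a1, the mitochondrial sterol 27-hydroxylase made in liver and in macrophages, had 9.01, 9.86, 8.81, 9.29 and 8.28 against 6.98, 7.13, 6.88, 7.24 and 7.26 (1.95 ± 0.44). All 5 mice at 600 cGy lay above all 5 unirradiated mice for each of the 3 genes. The top dose was less uniform at 168 hr. At 1050 cGy, Cyp8b1 was higher than at 0 cGy in 2 of 5 runs (−0.21 to 3.07). Cyp7a1 was higher in 4 (−0.13 to 2.73) and Cyp27a1 in 5 (0.16 to 2.56). Cyp17a1, the steroid 17-hydroxylase, was the only steroid hormone gene called higher (1.71 at 168 hr).

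Genes outside the family that serve it moved too. Of 8 measured redox partners and helpers, 8 were called higher at 120 and at 168 hr. Alas1, the first enzyme of haem synthesis outside red cells, rose by 2.43 ± 0.43 at 168 hr, Pgrmc1, a P450-binding haem protein, by 1.89, and Fdx1, the mitochondrial ferredoxin, by 1.86. Cyb5r3, which reduces cytochrome b5, was higher by 2.52 at 168 hr and already by 2.05 at 48 hr and 2.47 at 72 hr, when most hepatic P450 genes were not called. Of 10 measured hepatocyte nuclear receptors and regulators, 7 were higher and 1 lower at 168 hr, with Hnf4a at 3.51 ± 0.58, Ppara at 3.19, Foxa3 at 2.78, Nr1h4 at 2.62 and Nr1i3 at 2.40. Ahr, the receptor that induces family 1, was lower by 1.51 at 120 hr, and Arnt, its partner, was lower by 0.31 at 120 hr and 0.47 at 168 hr.

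Hepatocyte markers moved beside all of these. All 18 measured markers were called higher at both times (median 6.77 at 120 hr and 7.91 at 168 hr), and their summed level ranged from 16.65 to 17.78 at 600 cGy and 168 hr, against 9.79 to 10.74 at 0 cGy. Alb itself had 14.58, 14.64, 14.41, 14.66 and 14.11 at 600 cGy, against 7.80, 5.64, 8.69, 6.21 and 7.95 at 0 cGy. Kidney tubule markers, another site of P450 expression, showed 0 of 9 higher at either time. Markers of lung epithelium, intestinal epithelium and steroidogenic cells were also measured but are not described here, so the kidney list does not stand for other tissues. The part of these markers in the P450 result was not tested. With mice at Alb of 10 or more left out, only doses up to 300 cGy remained at these times, Cyp3a11 and Cyp27a1 turned to slopes of −0.01 and −0.06 at 120 hr, and 12 members were called at 120 hr in place of 49. At 168 hr the count of both directions together changed far less from its main value of 53, but it does not show that directions held. The slopes of Cyp11a1, Cyp1b1, Cyp24a1, Cyp2d12, Cyp2j13 and Cyp4b1 turned positive there, and that of Cyp27a1 turned negative. Of all genes, 72.7% were called either way between 300 and 0 cGy at 168 hr.

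**Figure D2:**
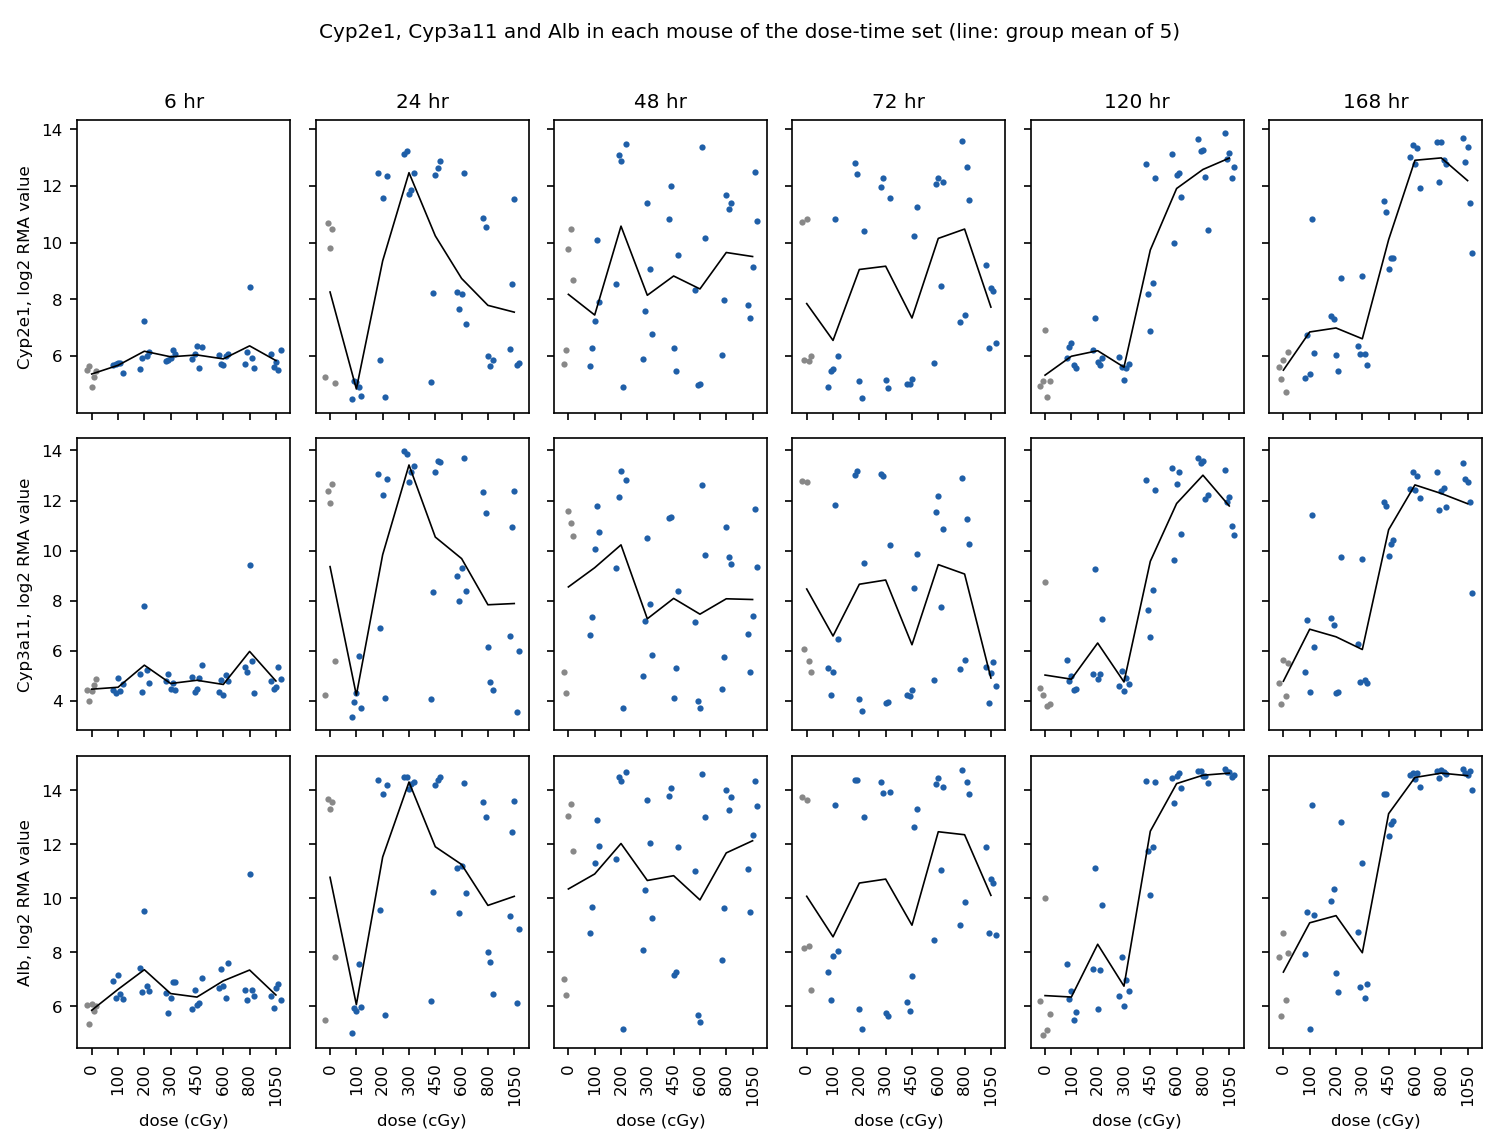
Log2 level of Cyp2e1, Cyp3a11 and Alb in each mouse (points) by dose at each time, 5 mice per group. At 120 and 168 hr all 3 genes are high in most mice at 450 cGy and above. For Cyp2e1, 1 mouse at 450 cGy and 120 hr overlaps the unirradiated mice. At 24, 48 and 72 hr mice of 1 group lie far apart.

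At 24, 48 and 72 hr the same genes were high in some mice of most doses. Cyp2e1 at 24 hr had 13.12, 13.22, 11.72, 11.84 and 12.45 at 300 cGy, 8.27, 7.64, 8.18, 12.46 and 7.13 at 600 cGy, and 5.25, 10.69, 9.81, 10.48 and 5.06 at 0 cGy. Alb at 24 hr had 14.49, 14.50, 14.04, 14.22 and 14.30 at 300 cGy, against 5.49, 13.70, 13.30, 13.57 and 7.82 at 0 cGy. All 5 mice of the 300 cGy group were high for both genes, and 3 of 5 unirradiated mice were. Set against 0 cGy, 40 members were called higher and 2 lower at 300 cGy and 24 hr, against 33.7% of all genes either way (15.8% higher), while 2 were higher and none lower at 600 cGy (27.9% of all genes either way). Over the whole dose range at 24 hr, 7 of 62 members were called, 5 higher and 2 lower, against 18.9% and 19.8% of all genes (38.7% either way), and Cyp2e1 was not among them.

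At 72 hr and the highest dose, Cyp3a11 was low in all 5 mice, of which 3 had Alb at 10 or more. At 1050 cGy it had 5.37, 3.92, 5.12, 5.54 and 4.61, against 12.78, 6.08, 12.74, 5.58 and 5.17 at 0 cGy, and Alb in the same mice in the same order had 11.88, 8.72, 10.72, 10.57 and 8.63, against 13.74, 8.16, 13.66, 8.21 and 6.59. The 3 irradiated mice with Alb between 10.57 and 11.88 thus had Cyp3a11 below 6. Unirradiated mice of that time had Alb of at most 8.21 or at least 13.66, so none matched these 3 in Alb. At 120 and 168 hr the mean of Cyp3a11 was high at 1050 cGy as that of Alb was, by 6.75 and 7.09 over 0 cGy. Single mice varied, and the smallest difference within a run at 168 hr was 2.80, where Alb was higher by 6.05. Cyp3a25, a second member of the subfamily, had 3.23, 3.01, 3.00, 3.37 and 2.98 at 1050 cGy, against 8.66, 3.28, 9.29, 3.14 and 3.30 at 0 cGy. Without Alb in the fit neither gene had a called slope at 72 hr. With the Alb level of each mouse as a covariate, a setting added after the data were seen, Cyp3a11 had slopes per 100 cGy of −0.22 ± 0.03 at 48 hr (adjusted p = 3.9e-10) and −0.31 ± 0.03 at 72 hr (4.1e-17), and Cyp3a25 had −0.24 at 72 hr (3.5e-06). That fit takes the relation to Alb as a straight line, whereas the P450 values climbed steeply where Alb was above about 12.

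Cyp2b10, the phenobarbital-induced oxidase best known from liver, had a called rise with dose at 48 and 72 hr, when Cyp2e1 and Cyp2d10 had none, and rose further at 120 and 168 hr. At 72 hr it had 8.66, 8.26, 8.88, 8.73 and 8.84 at 1050 cGy, 8.0, 7.42, 8.14, 8.11 and 8.05 at 600 cGy, and 7.38, 6.31, 6.52, 6.34 and 5.93 at 0 cGy. All irradiated mice of both doses lay above all unirradiated mice. The difference between 600 and 0 cGy was 1.45 ± 0.32 at 72 hr (adjusted p = 3.4e-12) and 1.32 ± 0.32 at 48 hr (7.2e-04), and it was positive in 5 of 5 runs at both times (0.62 to 2.11 and 0.88 to 1.70). Cyp2b10 was 1 of 13 members called at 72 hr (5 higher and 8 lower, against 26.3% and 27.1% of all genes, 53.4% either way) and 1 of 9 at 48 hr (3 higher and 6 lower, against 24% and 23.3%, 47.3% either way). At 168 hr, when the hepatic members were high, it had 7.09, 9.18, 8.57, 8.80 and 7.86 at 600 cGy, against 6.08, 4.82, 5.71, 5.25 and 5.56 at 0 cGy (2.82 ± 0.32, adjusted p = 1.8e-21), and at 120 hr the difference was 2.48 ± 0.32 (2.9e-18). These later differences were larger than those at 48 and 72 hr, and the groups did not overlap at 168 hr.

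The rise of Cyp2b10 was seen again at 24 hr in other mice. In the untreated arm of the sex and treatment experiment, females had 7.10, 7.45, 8.10, 6.84 and 6.61 at 600 cGy, against 5.81, 6.63, 6.59, 5.80 and 5.74 at 0 cGy. Males had 7.50, 7.51, 7.74, 7.00 and 7.76 at 600 cGy, against 5.43, 5.64, 5.82, 5.58 and 5.68 at 0 cGy. The male groups did not overlap, and the lowest irradiated female lay within the range of the unirradiated females. The difference was 1.49 ± 0.19 (adjusted p = 1.4e-10), the largest of the 4 members called in that arm (2 higher and 2 lower, against 18.3% and 22.9% of all genes, 41.2% either way). It was 1.48 with the Alb level as a covariate, and 1.33 and 1.37 at 48 and 72 hr of the dose and time experiment. Both other probe sets annotated to Cyp2b10 were also higher, by 1.20 and 0.92 at 72 hr, and since the probe set used is of a kind that can bind transcripts of related genes, other 2b members may add to it.

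Tissue macrophage markers moved with Cyp2b10. Of 11 measured, 9 were called higher at 48 hr (median 2.01) and 9 at 72 hr (median 3.92), and their summed level at 72 hr ranged from 14.25 to 15.01 at 600 cGy, against 9.07 to 12.56 at 0 cGy. Platelet markers rose as well, 9 of 10 at 72 hr. Their part in the Cyp2b10 result was not tested. Cyp2b10 also rose with dose under GCSF, by 0.95 ± 0.19 at 24 hr (adjusted p = 2.2e-04) and 0.62 at 6 hr (0.0054).

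Cyp4b1, the brightest member, was lower at 600 cGy than at 0 cGy from 48 hr on. At 72 hr it had 7.00, 6.63, 6.38, 6.66 and 6.48 at 600 cGy, against 10.47, 10.69, 9.46, 10.95 and 10.82 at 0 cGy. At 168 hr it had 7.10, 6.81, 7.25, 7.06 and 6.65 at 600 cGy, against 9.81, 9.26, 9.13, 9.28 and 9.69 at 0 cGy. The groups did not overlap at either time. The difference was −3.08 ± 0.34 at 48 hr (adjusted p = 3.8e-22), −3.85 ± 0.34 at 72 hr (1.2e-33), −3.14 at 120 hr and −2.46 ± 0.34 at 168 hr (3.6e-37), and each was negative in 5 of 5 runs. At 100 cGy and 168 hr, by contrast, it had 10.49, 10.59, 10.48, 9.73 and 10.23, with 4 of 5 mice above the highest unirradiated mouse. At 120 hr it was higher at 100 cGy (0.77 ± 0.34, adjusted p = 0.034) and 200 cGy (0.73 ± 0.34, 0.046) than at 0 cGy, and at 168 hr at 300 cGy (0.85 ± 0.34, 0.018). Of all genes, 71.3%, 67.1% and 72.7% were called either way in those comparisons, in that order (39.5%, 37.5% and 40.7% higher). With mice at Alb of 10 or more left out, which left doses up to 300 cGy at these times, its slope per 100 cGy turned to 0.15 at 120 hr (adjusted p = 0.12) and 0.25 at 168 hr (0.0075), while at 48 and 72 hr it stayed negative (−0.26 and −0.38).

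Erythroid markers fell at the same times. Of 11, 9 were lower at 48 hr (median −3.69) and 11 at 72, 120 and 168 hr (medians −4.33, −1.95 and −1.18). Their summed level at 72 hr ranged from 10.61 to 13.31 at 600 cGy, against 15.96 to 16.22 at 0 cGy. At 168 hr it ranged from 13.07 to 16.18 at 600 cGy, against 16.13 to 16.26 at 0 cGy. Their part in the Cyp4b1 result was not tested.

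**Figure D3:**
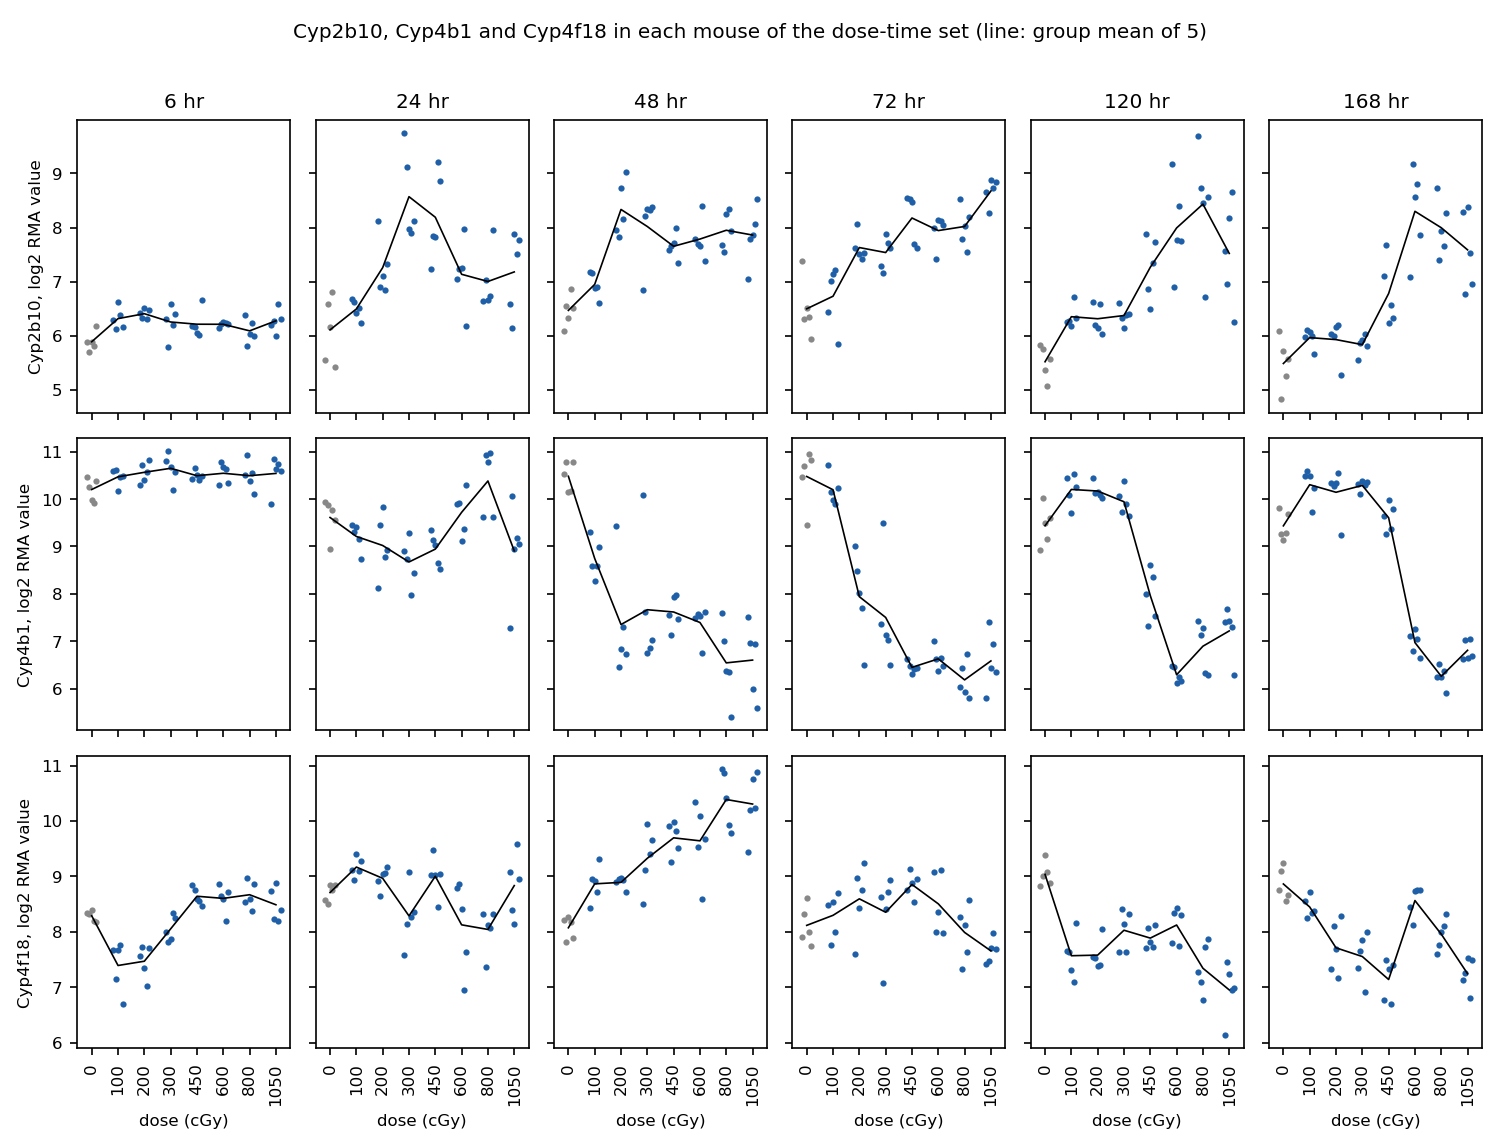
Log2 level of Cyp2b10, Cyp4b1 and Cyp4f18 in each mouse (points) by dose at each time, 5 mice per group. Cyp2b10 is higher and Cyp4b1 lower at 600 cGy and above from 48 hr on, and Cyp4f18 is higher at 48 hr and lower at most irradiated doses at 168 hr.

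Cyp4f18, a leukotriene B4 hydroxylase of mouse neutrophils, changed direction with time. At 48 hr it had 9.45, 10.20, 10.76, 10.23 and 10.88 at 1050 cGy, 10.34, 9.53, 10.08, 8.59 and 9.67 at 600 cGy, and 8.22, 7.81, 8.27, 8.18 and 7.89 at 0 cGy. Every mouse at these 2 doses lay above every unirradiated mouse, with a difference of 1.57 ± 0.25 at 600 cGy (adjusted p = 3.2e-20), positive in 5 of 5 runs (0.41 to 2.12). At 168 hr it had 7.14, 7.26, 7.52, 6.81 and 7.49 at 1050 cGy, 6.78, 7.50, 7.34, 6.69 and 7.40 at 450 cGy, and 8.76, 9.09, 9.23, 8.56 and 8.67 at 0 cGy. Both irradiated groups lay below the unirradiated one, and in each of the 5 runs the mouse at 1050 cGy was lower, by 1.18 to 1.83. At 600 cGy the difference was only −0.30, and 2 runs were higher and 3 lower. At 72 hr its called slope was negative (−0.05 per 100 cGy) although its difference between 600 and 0 cGy was 0.39. Mature neutrophil markers were higher at 48 hr (7 of 10, median 2.54) and mixed at 168 hr (3 higher and 6 lower), and their part was not tested.

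The slope on dose differed between times for 55 of the 62 members by limma's F test, against 92.3% of all genes. Cyp4b1, Cyp4f18, Cyp2b10, Cyp2e1 and Cyp3a11 were among the 55. The 7 that were not called were Cyp4a31, Cyp46a1, Cyp2g1, Cyp2c65, Cyp2c55, Cyp2d34 and Cyp3a16, all dim in blood.

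At 6 hr, 8 members were called, all higher, against 34.7% of all genes (16.2% higher). Cyp1b1, an oestrogen and polycyclic hydrocarbon oxidase, had 6.72, 6.93, 6.29, 6.30 and 6.45 at 600 cGy, against 5.68, 5.35, 5.58, 6.18 and 6.13 at 0 cGy (0.76 ± 0.20, adjusted p = 0.010). Cyp24a1, the vitamin D 24-hydroxylase, had 6.66, 7.16, 6.35, 6.88 and 6.35 against 6.05, 5.90, 5.76, 5.83 and 6.19 (0.73 ± 0.19). Neither gene's groups overlapped, but dim genes rose as a whole: the median difference was 0.30 over all genes in the lowest 30% by mean and 0.32 over the members. The others called were Cyp21a1 (0.63), Cyp2j13 (0.51), Cyp1a1 (0.51), Cyp4f16 (0.44), Cyp46a1 (0.40) and Cyp4f18 (0.31). In untreated mice at 6 hr of the sex and treatment experiment none of these 8 was called higher, and Cyp4f16 was called lower (−0.42 ± 0.13, adjusted p = 0.011). Cyp11a1, the first enzyme of steroid synthesis, was not called at 6 hr (5.01, 5.08, 4.67, 5.04 and 4.68 at 600 cGy, against 4.61, 4.62, 4.37, 4.88 and 4.43 at 0 cGy). At 48 and 72 hr, when the dimmest 30% of genes had medians of −0.14 and −0.25, the same kind of member fell, with Cyp2d12 at −0.80 and −1.09, Cyp2c39 at −0.67 and −0.92, Cyp2j13 at −0.60 and −0.64 and Cyp27b1, the vitamin D activating enzyme, at −0.31 and −0.40.

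LPS without radiation lowered Cyp27a1, Cyp4v3, Cyp4f18 and Cyp4f16 at 6 hr. Cyp4b1, the brightest member, was not called (0.12 ± 0.24 in the small and 0.07 ± 0.22 in the sex and treatment experiment at 6 hr). In the small treatment experiment (6 mice per group), Cyp27a1 had a lowest, median and highest value of 5.35, 5.95 and 6.08 under LPS, against 7.42, 7.73 and 7.95 in untreated mice. Cyp4v3, a fatty acid hydroxylase, had 4.82, 5.24 and 5.81 under LPS, against 6.53, 7.16 and 7.33. Cyp4f18 had 7.30, 7.55 and 8.08 under LPS, against 8.50, 9.09 and 9.53. None of the 3 overlapped, and the differences were −1.85 ± 0.19 for Cyp27a1 (adjusted p = 1.8e-10), −1.75 ± 0.25 for Cyp4v3 (4.5e-07) and −1.51 ± 0.16 for Cyp4f18 (4.6e-10). With Cyp4f16 (−0.71 ± 0.14) these were the 4 members called there, all lower, against 26.2% of all genes (16% lower).

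The same 3 genes were lower under LPS in the sex and treatment experiment. At 6 hr and 0 cGy, Cyp4v3 fell by 1.99 (SE 0.44, adjusted p = 1.4e-04), Cyp4f18 by 1.51 (SE 0.30, 2.2e-05) and Cyp27a1 by 0.97 (SE 0.25, 9.9e-04). The LPS and untreated mice did not overlap for Cyp4v3 and Cyp27a1 at 6 hr, and overlapped for all 3 genes at 24 hr, for Cyp27a1 through 1 male under LPS at 7.50 (lowest untreated mouse 7.14). Cyp4v3 was then at −1.16, Cyp27a1 at −1.07 ± 0.24 (1.3e-04) and Cyp4f18 at −0.79 (0.033), of which Cyp4v3 and Cyp4f18 lost the call when single mice of each group were left out (adjusted p up to 0.19 and 0.11). In all, 7 members were called higher and 5 lower at 6 hr (14.8% and 20.5% of all genes, 35.2% either way) and none higher and 5 lower at 24 hr (9.2% and 12.7%, 21.9% either way). The 7 higher were Cyp24a1 (0.66), Cyp4a31 (0.55), Cyp2g1 (0.51), Cyp2j13 (0.41), Cyp11a1 (0.38), Cyp1a1 (0.31) and Cyp2j9 (0.29). Without the 2 libraries that went against their sex label, 9 members were called at 6 hr, 5 higher and 4 lower, with Cyp11a1 (adjusted p = 0.056) and Cyp4f16 (0.063) among those lost.

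White cell markers moved with LPS as well. Neutrophil markers were higher for 7 of 10 genes in the small experiment, 7 of 10 at 6 hr and 10 of 10 at 24 hr, and monocyte markers were lower for 8 of 9, 6 of 9 and 2 of 9. In the small experiment the summed monocyte level ranged from 12.21 to 13.23 under LPS, against 13.17 to 14.02 in untreated mice. The part of the neutrophil and monocyte markers in the fall of Cyp4f18, Cyp4v3 and Cyp27a1 was not tested.

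**Figure D4:**
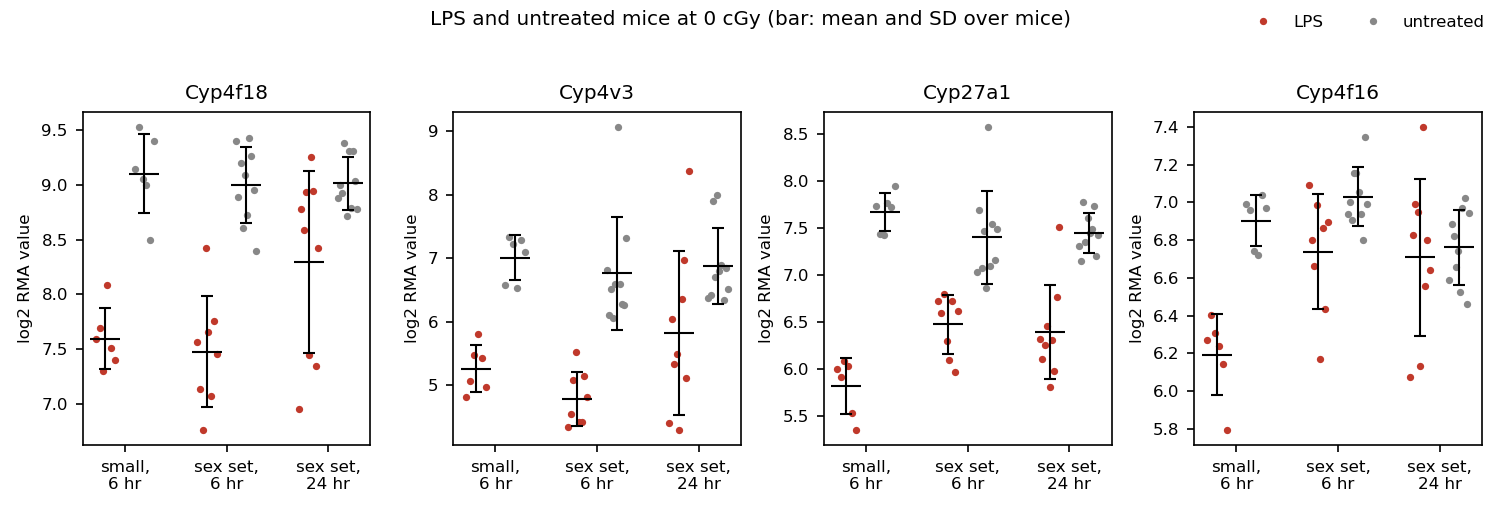
Log2 RMA level of Cyp4f18, Cyp4v3, Cyp27a1 and Cyp4f16 in each mouse (points) under LPS (red) and in untreated mice (grey) at 0 cGy, in the small treatment experiment at 6 hr and the sex and treatment experiment at 6 and 24 hr, with the mean and SD over mice. The LPS and untreated points do not overlap in the small experiment for any of the 4 genes, and with both sexes together they overlap for each of the 4 at 24 hr.

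LPS also changed the response of some members to dose. At 24 hr Cyp2b10 under LPS had 6.46, 5.91, 6.04, 5.83 and 6.17 in females at 600 cGy, against 5.46, 6.06, 5.51 and 6.07 at 0 cGy. In males it had 5.57, 6.75, 5.60, 6.01 and 5.29 at 600 cGy, against 7.08, 6.28, 5.76, 6.00 and 7.01 at 0 cGy. The groups at 600 and 0 cGy overlapped in both sexes under LPS, and the difference between the dose effects, LPS minus untreated, was −1.63 ± 0.27 (adjusted p = 1.6e-06). Cyp27a1 went the other way. In untreated mice at 24 hr it had 6.29, 6.86, 6.72, 6.77 and 6.71 in females at 600 cGy, against 7.31, 7.78, 7.60, 7.49 and 7.20 at 0 cGy, a difference of −0.84 ± 0.23 over both sexes, while under LPS it was already low at 0 cGy (5.81 to 6.77 in females). The difference between its dose effects was 1.02 ± 0.33 at 24 hr (adjusted p = 0.013) and 1.0 ± 0.34 at 6 hr (0.026), and both lost the call when some single mice of each group were left out (adjusted p up to 0.094 and 0.15). Of the 62 members, 5 differed in slope at 24 hr (4 higher and 1 lower under LPS, against 7.42% and 9.13% of all genes, 16.5% either way) and 2 at 6 hr, both higher (against 2.49% higher, 6.45% either way), the second being Cyp39a1, an oxysterol hydroxylase (0.86 ± 0.18, adjusted p = 1.6e-04). Tissue macrophage markers ranged from 9.78 to 10.82 in summed level in females at 600 cGy under LPS and from 12.65 to 14.33 in untreated females at 600 cGy at 24 hr, and their part was not tested.

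No member was called under GCSF without radiation. By limma, 0 of 62 were called at 6 hr (0% of all genes, and 0 members at an unadjusted p under 0.05), 0 at 24 hr (0.549% of all genes, 5 members unadjusted) and 0 in the small experiment (0.549%, 7 members unadjusted). The alternatives gave at most 0, 6 and 2 members. The slope on dose under GCSF differed from that in untreated mice for 0 members at 6 hr (0.0161% of all genes, 1 member unadjusted) and 0 at 24 hr (0.00807%, 2 unadjusted). Within the GCSF arm, 13 members had a called slope at 6 hr (11 higher and 2 lower, against 52.6% of all genes) and 4 at 24 hr (3 higher and 1 lower, 30.6%). The 2 lower at 6 hr were Cyp27a1 (−0.70) and Cyp4v3 (−1.13), and Cyp4b1 was the lower one at 24 hr (−0.76).

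The other arms at single times gave few calls. In untreated mice at 6 hr, Cyp39a1 (−0.37) and Cyp4f16 (−0.42) were called, both lower, against 19.9% of all genes, and without the 2 libraries that went against their sex label 3 members were called. Under LPS, 7 members had a called slope at 6 hr, all higher (32.2% of all genes), led by Cyp2c39 (0.57) and Cyp39a1 (0.48), and at 24 hr the single one was Cyp4f13 (0.50, against 13% of all genes). In the small experiment 600 cGy raised Cyp4f13 (0.74 ± 0.16, adjusted p = 0.0011) and Cyp4f18 (0.60 ± 0.17, 0.018) and lowered Cyp27a1 (−0.68 ± 0.20, 0.029), against 7.38% of all genes, and Cyp4f18 and Cyp27a1 lost the call without single mice (adjusted p up to 0.13 and 0.17). In untreated mice at 24 hr, Cyp26a1, a retinoic acid hydroxylase, was also higher (0.59 ± 0.15, adjusted p = 0.0032).

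Hepatic members were lower in females than in males at 24 hr, and members known as male-predominant in mouse liver had their high values in males. Over all doses and agents, 27 members were called lower and 4 higher in females at 24 hr, against 15.8% and 12% of all genes (27.8% either way). Cyp2d9, a steroid 16-alpha-hydroxylase predominant in male mouse liver, had a lowest, median and highest value of 4.36, 4.94 and 5.82 in 55 females, against 4.62, 5.23 and 11.79 in 55 males. Cyp4a12a, a male-predominant arachidonic acid hydroxylase, had 3.58, 3.87 and 4.63 in females, against 3.52, 4.10 and 9.46 in males. Cyp7b1, a male-predominant oxysterol 7-alpha-hydroxylase, had 3.48, 3.88 and 4.99 in females, against 3.35, 4.10 and 9.51 in males. No female was above 6 for any of these 3 genes, although females reached 12.09 for Cyp2e1 (males 13.54) and 14.23 for Alb (males 14.50). The differences were −1.35 ± 0.20 for Cyp2d9 (adjusted p = 2.3e-08), −0.90 ± 0.15 for Cyp4a12a (6.2e-07) and −0.88 ± 0.15 for Cyp7b1 (8.1e-07).

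The opposite pattern held for 2 genes of the 2b subfamily that are female-predominant in mouse liver. Cyp2b9 had a lowest, median and highest value of 4.07, 4.60 and 8.63 in females, against 4.14, 4.51 and 5.19 in males (0.26 ± 0.09, adjusted p = 0.013). Cyp2b13 had 4.56, 5.33 and 9.01 in females, against 4.47, 5.13 and 5.74 in males (0.27). The medians differed by little, and the females' highest mice stood far above any male. Cyp4b1 (0.35 ± 0.09) and Cyp11a1 (0.25) were the other 2 called higher.

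**Figure D5:**
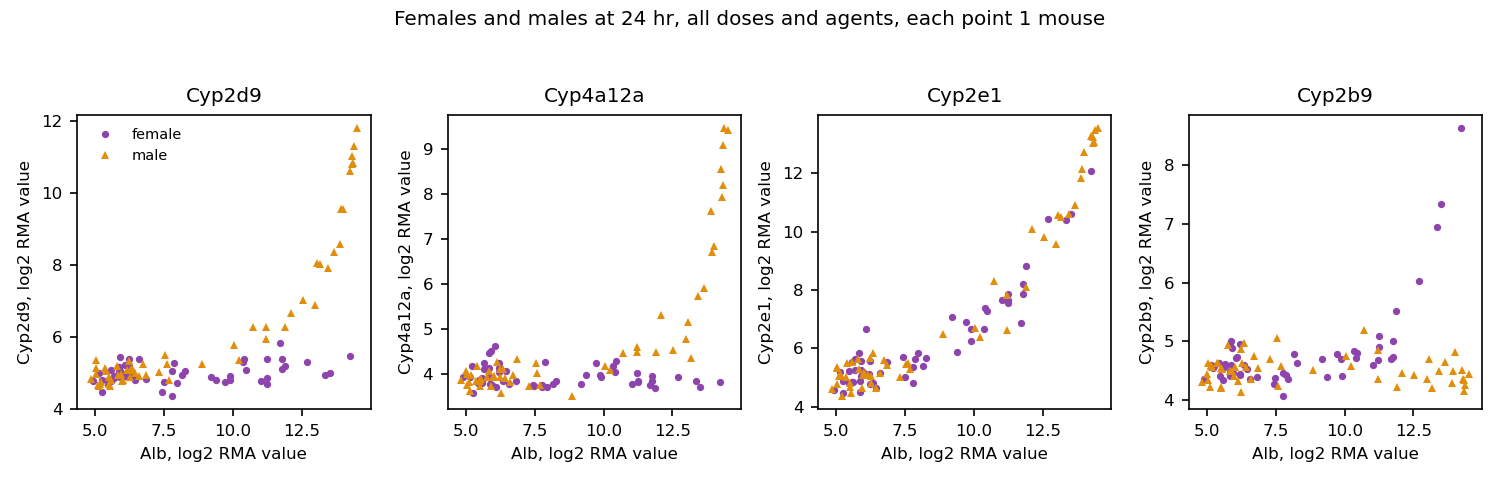
Log2 RMA level of Cyp2d9, Cyp4a12a, Cyp2e1 and Cyp2b9 (vertical axes) against that of Alb (horizontal axes) in each mouse of the sex and treatment experiment at 24 hr, 55 females (circles) and 55 males (triangles) over all doses and agents. Above an Alb of 12, Cyp2e1 is high in both sexes, Cyp2d9 and Cyp4a12a are high in males and at most 5.82 and 4.63 in females, and Cyp2b9 is high in females and at most 5.19 in males.

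The remaining members called lower in females at 24 hr were mostly hepatic. They were Cyp2f2 (−1.29), Cyp2e1 (−1.18), Cyp3a25 (−1.14), Cyp2d10 (−0.99), Cyp2d26 (−0.96), Cyp2c54 (−0.95), Cyp2c50 (−0.86), Cyp2c29 (−0.79), Cyp2j5 (−0.76), Cyp1a2 (−0.73), Cyp2c23 (−0.69), Cyp2c70 (−0.68), Cyp2a12 (−0.64), Cyp4v3 (−0.63), Cyp3a13 (−0.61), Cyp8b1 (−0.52), Cyp7a1 (−0.47), Cyp4f14 (−0.37), Cyp27a1 (−0.35), Cyp2d22 (−0.33), Cyp4f15 (−0.26), Cyp4f13 (−0.24), Cyp2j6 (−0.19) and Cyp4f16 (−0.15). Hepatocyte markers were lower in females too, 13 of 18, and Alb was at 10 or more in 15 of 55 females and 22 of 55 males. With the Alb level as a covariate 31 members were called, 4 higher and 27 lower. Without single mice of each group, Cyp2e1 and Cyp27a1 lost the call (adjusted p up to 0.10 and 0.072). The part of the markers was not tested further.

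At 6 hr, 33 members were called, all lower in females, against 42.5% of all genes lower (71.5% either way), and 33 without the 2 libraries that went against their label. The larger differences were Cyp2c29 (−0.60), Cyp2d12 (−0.55), Cyp2d9 (−0.48), Cyp7b1 (−0.46), Cyp4a12a (−0.43), Cyp4a31 (−0.39), Cyp24a1 (−0.35), Cyp46a1 (−0.33), Cyp2d13 (−0.32), Cyp1b1 (−0.30), Cyp21a1 (−0.30) and Cyp2d22 (−0.30). Those between −0.30 and −0.20 were Cyp2c38, Cyp4f16, Cyp4f13, Cyp27a1, Cyp2g1, Cyp2b19, Cyp4f14, Cyp1a1, Cyp4f15 and Cyp2c39. The smallest were Cyp39a1, Cyp2c55, Cyp2j13, Cyp11b2, Cyp2s1, Cyp2d34, Cyp27b1, Cyp2j6, Cyp2c65, Cyp2j9 and Cyp3a16 (−0.07). The dimmest 30% of all genes had a median difference of −0.15, and with the spread of each array as a covariate 14 members were called.

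In the dose and time experiment the labels do not give the sex. Over its 240 mice Cyp4a12a had a lowest, median and highest value of 3.52, 3.98 and 4.79, Cyp7b1 3.42, 3.98 and 5.58, and Cyp2d9 4.58, 5.26 and 9.18. Cyp2b9 had 4.15, 5.02 and 11.17 and Cyp2b13 4.61, 5.71 and 10.74. Cyp4a12a and Cyp7b1 were thus low in all of these mice, among them those with Alb above 14, whereas the 2b genes reached high values. Cyp2d9, also male-predominant, was not low in all of them: its highest value of 9.18 lay above the 5.82 that was the highest of the labelled females at 24 hr. Eif2s3y was at most 3.95 and Xist at least 9.78 in all of these mice, and the corresponding values in the small experiments were at most 3.64 and at least 10.41.

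At 150 cGy and 168 hr in the small 7 day experiment, 39 members were called higher and 3 lower, against 33.8% and 33.3% of all genes (67.1% either way). Cyp3a11 had a lowest, median and highest value of 5.03, 7.77 and 10.77 in 10 mice at 150 cGy, and the 3 single mice at 0 cGy were at 3.31, 5.73 and 5.26 (2.89 ± 1.09, adjusted p = 0.026), and Alb was at 10 or more in 3 of the 10. Cyp4b1 had a lowest, median and highest value of 10.12, 11.36 and 11.62 at 150 cGy, and the 3 single mice at 0 cGy were at 9.90, 10.49 and 9.47, a rise of 1.19 ± 0.30 (adjusted p = 0.0027), and all 11 erythroid markers were higher there (median 1.0). Cyp24a1 had a lowest, median and highest value of 5.63, 6.08 and 7.28 at 150 cGy, and the single mice at 0 cGy were at 4.94, 4.95 and 4.83 (1.38 ± 0.30, adjusted p = 8.2e-04), with no overlap. The sign of Cyp4b1 was thus the reverse of that at 600 cGy and 168 hr, and like that of the uncalled difference at 100 cGy and 168 hr.

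The 3 that fell were family 4 genes. Cyp4v3 was at −1.04 ± 0.38 (adjusted p = 0.022), Cyp4f18 at −0.96 ± 0.27 (0.0050) and Cyp4f13 at −0.47 ± 0.15 (0.0093). Cyp4f18 had a lowest, median and highest value of 7.73, 8.46 and 9.55 at 150 cGy, and the single mice at 0 cGy were at 9.38, 9.28 and 9.59, with 1 irradiated mouse within the range of the unirradiated ones. Among the rises were Cyp2c68 (1.33), Cyp2c38 (1.26), Cyp2c39 (1.26), Cyp21a1 (1.21) and Cyp1b1 (1.03). The dimmest 30% of all genes rose with a median of 0.38, and with the spread of each array as a covariate 10 members were called, 8 higher and 2 lower. Under that setting Cyp4v3 turned to 0.58 and Cyp4f18 to 0.03, neither called, and Cyp4f13 stayed lower (−0.73). Without single mice of each group, Cyp3a11 and Cyp4v3 lost the call (adjusted p up to 0.20 and 0.10). The array names put this experiment in 1 run.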

How the data were processed

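Expression was measured on 536 arrays of 534 mice, and 2 mice with a repeat scan were averaged. The authors deposited log2 values made by RMA with the affy package, per the submitters' processing notes, with versions and settings not given in the sources used here, for 22690 probe sets. RMA fits the arrays it is given to 1 distribution, so a broad shift in signal can be partly removed. Whether all arrays were normalised together is not given in the sources used here, and array medians lay between 5.61 and 5.93. Of the probe sets, 20380 had 1 symbol, 691 several and 1555 none, and each gene was read through its probe set with the highest mean. No per-sample column was left unmapped.

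Each experiment was fitted on its own with limma 3.58.1 in R 4.3.3 (lmFit and eBayes on group means, residual degrees of freedom 192, 178, 41 and 14), and p-values were adjusted over all genes with Benjamini-Hochberg. The slope test was checked on simulated data. Python 3.11.15 with pandas 2.3.3, numpy 2.4.6 and matplotlib 3.10.9 served for the tables and plots. Summed levels of a marker list are log2 of the sum of unlogged values. The genes named are Cyp2e1, Cyp4f18, Cyp1b1, Cyp27a1 and Cyp11a1, up to 5 risen and 5 fallen with the largest difference and up to 3 per class with the smallest p in each comparison, and every called member in the sex comparison. Cyp2c54, Cyp3a25, Cyp2b13, Eif2s3y and Xist were also described after their values were seen. The members and lists were chosen with earlier results of these data known. Array runs were balanced over groups in the dose and time experiment.

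Mouse numbers in the labels were shared between groups. On average they showed little pairing of mice. The mean correlation of same-numbered mice's deviations was 0.017 in the dose and time experiment, against −0.002 for other numbers. It was 0.036 against −0.007 in the sex and treatment and 0.062 against −0.006 in the small treatment experiment. In the small 7 day experiment it was −0.134 (15 pairs) against 0.024. A mean cannot exclude pairing in some groups. Alternatives changed the filter on dim genes, centring, quantile normalisation, the probe set rule, the run, the mouse number, the groups in the fit, the prior, single replicates and mice with high Alb, and 3 were added after seeing the data (array spread, Alb level, and the libraries against their sex label).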

Additional observations from a re-analysis of the deposited data

Results flagged for a closer look

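The slope on dose differed between times for 55 of the 62 members by limma's F test, against 92.3% of all genes.

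The dose effect differed between LPS-treated and untreated mice, by a test of that difference, for 2 members at 6 hr. They were Cyp39a1 (0.86 between 600 and 0 cGy, LPS minus untreated) and Cyp27a1 (1.0). At 24 hr it differed for Cyp2b10 (−1.63), Cyp27a1 (1.02), Cyp4f13 (0.64), Cyp39a1 (0.62) and Cyp4f16 (0.57). The 2 sterol genes Cyp27a1 and Cyp39a1 were called with the same sign at both times.

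Single mice stood apart from their group in 4 of 92 gene and group pairs tested with Dixon's ratio, and chance flags about 1 group in 20. Cyp2e1 was at 12.46 in 1 mouse at 600 cGy and 24 hr, whose Alb was the highest of its group (14.28). Cyp2e1 was at 6.92 in 1 mouse at 0 cGy and 120 hr and at 8.82 in 1 mouse at 300 cGy and 168 hr. Cyp2b10 was at 7.42 in 1 mouse at 600 cGy and 72 hr, the lowest of its group.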

How the results depend on the processing

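All counts are members called of 62. At 168 hr the dose slope gave 53 and at 120 hr 49, and under every setting except the removal of dim genes, the array spread, the removal of mice with high Alb and the removal of single mouse numbers they stayed between 52 and 54 and between 49 and 54. With the array spread they were 41 and 42, and without mice at high Alb 47 and 12. The rise of Cyp2e1 and Cyp3a11 at 168 hr, that of Cyp2b10 at 48 and 72 hr and the fall of Cyp4b1 at 48, 72, 120 and 168 hr were called with every single mouse number left out. Of the values of named genes under the alternatives, 3775 kept direction and call, 52 gained a call, 382 lost it and 31 reversed. The cause was not tested, except that leaving out genes or mice leaves fewer to count.

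Removing dim genes left 5 at 6 hr, 5 at 48 hr, 7 at 72 hr, 25 at 120 hr, 25 at 168 hr and 27 for the difference between times, 0 for the LPS slope at 6 hr, 6 for LPS at 0 cGy and 6 hr, 1 for the LPS slope difference at 6 hr, 2 for the GCSF slope at 24 hr, 10 and 15 for sex at 6 and 24 hr, and 24 at 7 days. With the array spread as a covariate there were 5 at 6 hr, 0 at 24 hr and 16 at 48 hr of the dose and time experiment. In the sex and treatment experiment that setting gave 5, 4 and 2 for the untreated, GCSF and LPS slopes at 6 hr, 8 and 2 for the untreated and LPS slopes at 24 hr, 5 for LPS at 0 cGy and 6 hr and 14 for sex at 6 hr, and at 7 days it gave 10. Without mice at Alb of 10 or more there were 15 at 6 hr and 12 at 120 hr, 24 and 8 for the untreated and GCSF slopes at 6 hr, 19 for LPS at 0 cGy and 6 hr and 3 for the LPS slope at 24 hr. With the Alb level as a covariate there were 15, 14 and 24 at 24, 48 and 72 hr. Centring gave 6, 23 and 4 for the untreated, GCSF and LPS slopes at 6 hr and 4 for the LPS slope at 24 hr. Quantile normalisation gave 4 at 24 hr of the dose and time experiment, 1 and 7 for the untreated and GCSF slopes at 6 hr, 2 for the LPS slope at 24 hr and 18 at 7 days. The mean of all probe sets gave 2 for the LPS slope at 24 hr. Fits on the groups compared gave 6 and 17 for the untreated and LPS slopes at 6 hr, 6 for GCSF at 0 cGy and 24 hr, 3 for the LPS slope difference at 24 hr and 1 for 600 cGy in the small experiment.

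With the mouse number as replicate block, 24 counts stayed within 1.5 times and 3 moved, to 4 for the slope at 24 hr, 2 for GCSF and 6 for 600 cGy in the small experiment.

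With 1 mouse number left out at a time, the dose and time counts ranged from 4 to 11 at 6 hr, 1 to 14 at 24 hr, 9 to 10 at 48 hr, 9 to 12 at 72 hr, 48 to 52 at 120 hr and 51 to 53 at 168 hr, and from 51 to 53 between times. At 6 hr in the sex and treatment experiment they ranged from 1 to 3, 4 to 12 and 2 to 10 for the untreated, GCSF and LPS slopes, 0 to 0 for GCSF at 0 cGy and for the GCSF slope difference, 5 to 15 for LPS at 0 cGy, 1 to 2 for the LPS slope difference and 24 to 33 for sex. At 24 hr they ranged from 2 to 5, 3 to 5 and 1 to 2 for the slopes, 0 to 0 for both GCSF results, 2 to 4 for LPS at 0 cGy, 3 to 4 for the LPS slope difference and 24 to 32 for sex. The small experiment gave 0 to 0 for GCSF, 4 to 6 for LPS and 1 to 2 for 600 cGy, and the 7 day experiment 24 to 44.

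Under the array spread these values reversed: for sex at 6 hr Cyp11a1 0.141, Cyp21a1 0.024, Cyp27b1 0.00926, Cyp2j9 0.00054 and Cyp2s1 0.00933; at 7 days Cyp4f18 0.0281 and Cyp4v3 0.585; as slopes per 100 cGy Cyp1b1 0.0281 at 48 hr and 0.0264 at 72 hr, Cyp24a1 0.0201 at 72 hr and 0.00624 at 168 hr, Cyp11a1 0.00167 and Cyp2d12 0.00656 at 168 hr. Under quantile normalisation Cyp2c65 (0.0212), Cyp2j6 (0.00117) and Cyp2j9 (0.011) reversed for sex at 6 hr, Cyp2c65 (−0.0635) at 7 days and the slope of Cyp11a1 (0.0082) at 168 hr. Without mice at Alb of 10 or more, the slope of Cyp2e1 turned to 0.126 at 24 hr. At 120 hr that setting gave Cyp1b1 0.096, Cyp27a1 −0.058, Cyp2c39 0.0392, Cyp3a11 −0.0123 and Cyp4b1 0.149. At 168 hr it gave Cyp11a1 0.0629, Cyp1b1 0.287, Cyp24a1 0.377, Cyp27a1 −0.0389, Cyp2d12 0.383, Cyp2j13 0.234 and Cyp4b1 0.245, and in both cases doses up to 300 cGy alone were left. Most members are dim, so signal over background limits them.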

Other observations

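Within the unirradiated mice of the dose and time experiment, P450 levels already differed widely between mice of 1 time. At 48 hr and 0 cGy, Cyp3a11 had 5.16, 4.33, 11.58, 11.10 and 10.58, and Alb in the same mice in the same order had 7.00, 6.39, 13.06, 13.49 and 11.76. At 1050 cGy and 48 hr, Cyp3a11 had 6.68, 5.15, 7.41, 11.66 and 9.34, and Alb 11.08, 9.49, 12.33, 14.34 and 13.42. At 600 cGy and 72 hr, Cyp3a11 had 4.85, 11.53, 12.19, 7.76 and 10.88, and Alb 8.45, 14.25, 14.47, 11.03 and 14.12.

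Cyp2c54, a hepatic member of family 2, went down again at the top dose at 168 hr in 2 of 5 mice, where it had 8.87, 7.37, 7.66, 4.30 and 3.97 at 1050 cGy, 8.52, 9.83, 8.78, 9.37 and 7.18 at 600 cGy, and 3.75, 3.4, 3.86, 3.68 and 3.90 at 0 cGy. Cyp2d9 did not, with 9.18, 6.58, 7.05, 7.37 and 7.11 at 1050 cGy, 6.06, 7.04, 6.08, 6.75 and 5.74 at 600 cGy, and 5.05, 5.02, 5.04, 5.11 and 5.24 at 0 cGy. Cyp2c54 was not alone in this. In the array runs of the 2 mice in which it was low, Cyp2c50 at 1050 cGy exceeded 0 cGy by only 2.05 and 0.25. Cyp2c37 did so by 3.39 and 0.38 and Cyp2c29 by 2.40 and 0.06, while Cyp2c68 kept 4.39 and 2.38 and Alb 8.53 and 6.05. The drop was not confined to the 2c subfamily. In the same runs the differences were 1.86 and 0.30 for Cyp2b13 and 0.91 and −0.13 for Cyp4f14, but 7.50 and 5.63 for Cyp2d10. These genes were picked after their values were seen, and the differences between them were not tested.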
